A study of Mus musculus with 41 samples.

Results

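Expression in epidermal stem cells of mice on a control diet was compared between ZT16, early in the night, and ZT12, at dusk, over all 17097 genes that could be named. ZT is zeitgeber time, counted in hours from lights on. The comparison used every control diet array labelled for these times, 4 at ZT16 and 3 at ZT12, or 7 of the 41 arrays of the series. The mice were wild type C57B6/J females that were 15 weeks old and had eaten the control diet without restriction for 7 weeks from the age of 8 weeks. The 8 arrays of ZT12 and ZT16 from mice on a high fat diet (4 at each time), of the same strain, sex and age, served as the other diet. The study collected epidermal stem cells from the epidermis at 6 times of day, 4 h apart, to follow daily expression under each diet. The stated plan was 4 mice in each group, but the labels do not tie an array to a mouse of its own. The tests therefore rest on array-to-array spread, which may be technical in part. All mice killed on a given day belonged to 1 time point. Time point and collection day therefore coincide here and cannot be told apart in any result given.

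The circadian clock of most cells is a loop in which the activators BMAL1 (Arntl) and CLOCK or NPAS2 switch on genes through E-box sequences, among them the Per and Cry genes, whose proteins then repress the activators. A side loop of REV-ERB and ROR receptors acts on Arntl through ROR elements, and the output factors DBP, TEF and HLF (activators) and NFIL3 (repressor) compete at D-boxes. In epidermal stem cells this loop is known for setting the daily timing of division, stress defence and readiness for differentiation.

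The deposited values are on the log2 scale, so a difference of 1 is a 2-fold difference. The arrays correlated at 0.994 to 0.996 within ZT12, at 0.991 to 0.994 within ZT16 and at 0.989 to 0.993 between the time points. On principal components of the 7 arrays the first, with 35.7% of the variance, separated ZT12 (-15.8 to -11.3) from ZT16 (8.72 to 13.5). On the second, with 19.8%, replicate 4 of ZT16 stood apart at 20.3, against -9.65 to 2.07 for the other arrays. The labelled cell type was checked against its markers, as levels only, since brightness is not comparable between probe sets. The basal epidermal genes read 12.68 to 12.76 (Krt5), 12.52 to 12.76 (Krt14), 10.82 to 11.19 (Itga6), 11.94 to 12.07 (Trp63) and 12.73 to 12.85 (Col17a1) over the 7 arrays, and 0 of 16 basal genes changed (1 at an unadjusted p under 0.05, limma). The bulge stem cell marker Cd34 read 5.09 to 6.09, and Krt10 and Krt1 of suprabasal cells 11.85 to 12.10 and 12.35 to 12.56. Over all 12 measured bulge genes the mean was 7.82 to 7.88 at ZT12 and 7.88 to 8.11 at ZT16. Over 21 suprabasal genes it was 8.59 to 8.85 and 8.64 to 8.78. The part of suprabasal cells in the RNA was not tested.

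Between ZT12 and ZT16 on the control diet 421 genes changed, which is 2.46% of those tested, at an adjusted p under 0.05 (limma, Benjamini-Hochberg over all genes). Of these, 258 rose (1.51%) and 163 fell (0.953%). Most changes were moderate. The median size was 0.47 on the log2 scale, 123 genes changed by at least 1.5-fold (66 up, 57 down) and 17 by at least 2-fold (8 up, 9 down). At an unadjusted p under 0.05 there were 2735 genes (16%). The 3 arrays of ZT12 and the 4 of ZT16 did not overlap for 408 of the 421, where 16.6% of all genes tested had groups that did not overlap. The number of changed genes depended on single arrays. It was 135, 64 and 178 without ZT12 replicates 1, 2 and 3, and 201, 125, 281 and 401 without ZT16 replicates 1 to 4. Fitted on the 7 arrays alone it was 235, with 122 rises and 113 falls, and only 152 of these 235 were among the 421.

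**Figure D1:**
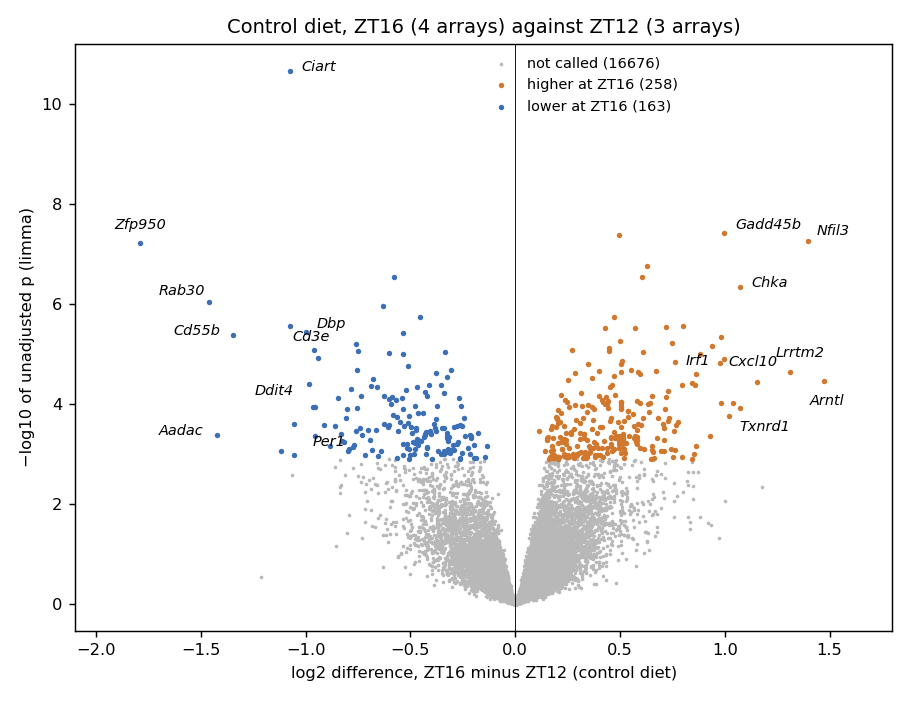
Log2 difference between ZT16 and ZT12 on the control diet (x axis) against -log10 of the unadjusted limma p (y axis), 1 point per gene for all 17097 genes. The 258 genes that rose are orange and the 163 that fell are blue; Ciart has the smallest p and Zfp950 the largest fall.

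Clock genes were among the largest changes in both directions. Of 27 measured clock genes of 30 listed, 10 changed, 5 up (Arntl, Nfil3, Timeless, Cry1 and Npas2) and 5 down (Ciart, Dbp, Per1, Cry2 and Hlf), where 2.46% of all genes changed. Their median difference was -0.01, against 0.01 over all genes. The promoters of the changed clock genes that hold a clock motif are printed here because each gene's direction is set beside them in the next paragraphs. They run from 250 bases before to 50 after the RefSeq start (GRCm38.p6), 5′ to 3′ on the gene's strand. Capitals mark the E-box CACGTG, the D-box TTATGTAA or the ROR core AGGTCA on either strand, which reads TGACCT on the other.
Ciart: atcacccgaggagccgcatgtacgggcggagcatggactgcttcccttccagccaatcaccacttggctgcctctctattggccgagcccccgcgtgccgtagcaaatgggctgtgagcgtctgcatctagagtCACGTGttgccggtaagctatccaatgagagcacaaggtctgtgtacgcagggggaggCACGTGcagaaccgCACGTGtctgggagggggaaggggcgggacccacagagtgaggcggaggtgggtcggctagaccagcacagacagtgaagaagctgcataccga
Cry1: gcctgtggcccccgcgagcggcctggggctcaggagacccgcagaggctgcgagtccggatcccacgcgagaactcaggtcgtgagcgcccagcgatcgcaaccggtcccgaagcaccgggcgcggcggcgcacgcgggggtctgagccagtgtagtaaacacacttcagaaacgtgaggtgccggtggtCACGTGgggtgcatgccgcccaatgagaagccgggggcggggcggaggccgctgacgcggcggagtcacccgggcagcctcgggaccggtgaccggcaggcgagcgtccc
Per1: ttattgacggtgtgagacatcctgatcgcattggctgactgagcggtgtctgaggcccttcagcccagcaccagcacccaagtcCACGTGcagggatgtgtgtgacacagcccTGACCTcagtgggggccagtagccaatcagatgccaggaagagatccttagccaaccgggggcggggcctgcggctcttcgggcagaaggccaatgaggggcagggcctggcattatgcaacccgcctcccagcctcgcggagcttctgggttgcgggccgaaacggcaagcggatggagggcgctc
Nfil3: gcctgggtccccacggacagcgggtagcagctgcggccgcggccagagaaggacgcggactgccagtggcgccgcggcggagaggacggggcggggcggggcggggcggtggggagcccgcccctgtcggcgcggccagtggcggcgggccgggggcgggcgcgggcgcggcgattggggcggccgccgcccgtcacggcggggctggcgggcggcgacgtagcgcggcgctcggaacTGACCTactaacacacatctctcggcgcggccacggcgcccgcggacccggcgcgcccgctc
Timeless: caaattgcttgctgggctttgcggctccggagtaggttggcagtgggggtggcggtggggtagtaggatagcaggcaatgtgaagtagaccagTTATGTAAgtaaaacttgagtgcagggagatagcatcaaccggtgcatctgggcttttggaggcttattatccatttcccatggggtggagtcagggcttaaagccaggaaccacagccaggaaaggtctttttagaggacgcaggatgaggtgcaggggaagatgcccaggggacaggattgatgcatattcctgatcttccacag
Arntl: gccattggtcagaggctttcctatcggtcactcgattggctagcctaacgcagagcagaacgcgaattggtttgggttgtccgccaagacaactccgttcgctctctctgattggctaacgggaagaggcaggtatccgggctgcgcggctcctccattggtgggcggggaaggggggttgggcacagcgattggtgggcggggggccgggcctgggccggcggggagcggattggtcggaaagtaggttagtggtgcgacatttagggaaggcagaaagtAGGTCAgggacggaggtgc

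The Ciart promoter (chr3:95882179-95882478, minus strand) holds 3 E-boxes, which begin 116, 58 and 44 bases before the start. That of Cry1 (chr10:85185005-85185304, minus strand) holds 1, at 60 bases, and that of Per1 (chr11:69098699-69098998, plus strand) 1 at 166 bases, with a ROR core at 137. Nfil3 (chr13:52980990-52981289, minus strand) has a ROR core 12 bases before the start, and the second of the 2 Arntl promoters (chr7:113207261-113207560, plus strand) has 1 that begins 31 bases after it. Timeless (chr10:128237816-128238115, plus strand) has a D-box at 157 bases. The 10 changed clock genes matched 12 promoters, and those of Dbp, Cry2, Npas2 and Hlf hold none of the 3 motifs in this window. Over the 31 promoters of 22 matched clock genes, 7 (22.6%) held the E-box, 2 of them of Tef, against 7.15% of all 32851 promoters. Only 2 (6.45%) held the D-box, those of Per3 and Timeless, against 0.938%. The ROR core was in 5 (16.1%), against 16.3%. Genes with an E-box here moved both ways, Ciart and Per1 down and Cry1 up. A match in these letters is a description and not a binding site.

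Among the activators, Arntl rose. Its level was 6.75, 7.43 and 6.65 on the ZT12 arrays and 8.23, 8.21, 8.29 and 8.94 on the ZT16 arrays. Every ZT16 array was above every ZT12 array, and replicate 4 of ZT16 was the highest. The difference was 1.48 ± 0.31 (SE, log2; adjusted p = 0.00953, limma), or 0.18 in its other probe set, which did not pass. Npas2, the partner that can stand in for CLOCK, read 7.90, 7.86 and 7.99 at ZT12 and 8.28, 8.28, 8.25 and 8.21 at ZT16. Its groups did not overlap and it rose by 0.34 ± 0.08, and by 1.16 in its other probe set. Clock read 7.98 to 8.15 at ZT12 and 7.26 to 8.09 at ZT16, a difference of -0.43 ± 0.18 that did not pass (adjusted p = 0.212). Of the receptors, Nr1d2, which encodes REV-ERB beta, read 9.24 to 9.67 and then 8.86 to 9.04, with no overlap. Its difference of -0.53 ± 0.16 did not pass (adjusted p = 0.0624), while its other probe set fell by 1.03. The receptor genes Rora and Rorb differed by 0.14 and 0.11 and did not pass, and neither did the paralog Arntl2 (-0.01).

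Among the repressors, Ciart fell with the smallest p of all genes. This gene encodes CHRONO, a repressor of the BMAL1 complex. Its level was 9.08, 8.73 and 8.71 at ZT12 and 7.74, 7.54, 7.80 and 7.99 at ZT16. The groups were apart by more than the range of either, and the fall was 1.07 ± 0.11 (adjusted p = 3.64e-07, limma), or 2.10-fold. Per1 read 10.68, 10.37 and 10.45 at ZT12 and 9.51, 9.39, 9.42 and 10.02 at ZT16, the last of these being replicate 4. It fell by 0.91 ± 0.22 (adjusted p = 0.0250). The cryptochromes went opposite ways. Cry1 rose from 6.33, 6.07 and 6.01 to 7.10, 6.81, 6.66 and 7.04, by 0.77 ± 0.19, and Cry2 fell from 9.38, 9.49 and 9.62 to 9.18, 9.0, 8.97 and 8.80, by 0.51 ± 0.12. Neither overlapped between the groups. Timeless, known mainly for its role at the replication fork, read 6.75, 5.82 and 6.46 and then 6.94, 7.25, 7.43 and 7.19, and rose by 0.86 ± 0.18 (0.24 in its other probe set, which did not pass). Per2 read 8.24 to 8.63 at ZT12 and 8.06 to 8.46 at ZT16, groups that overlapped, with a difference of -0.16 ± 0.14 (adjusted p = 0.652). Per3 differed by -0.12 in its brightest probe set, which stood for the gene, but its 4 other probe sets fell by 0.62 to 1.51 and all passed, so its call depends on the probe set. The kinase genes Csnk1e and Csnk1d and the ligase gene Fbxl21 differed by 0.22, -0.06 and 0.05 and did not pass.

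Among the output factors, Nfil3 rose and Dbp and Hlf fell. Nfil3 read 7.22, 7.27 and 6.88 at ZT12 and 8.54, 8.60, 7.94 and 9.01 at ZT16. Its lowest ZT16 array was above its highest ZT12 array, and it rose by 1.40 ± 0.20 (adjusted p = 0.000207, limma). Dbp, whose protein activates the sites that NFIL3 represses, read 8.56, 8.66 and 8.69 and then 7.58, 7.68, 7.84 and 7.45. It fell by 1.00 ± 0.18, with tight and separate groups. Hlf read 10.18 to 10.55 and then 9.93 to 10.19, groups that overlapped at one array each, and fell by 0.31 ± 0.09 (adjusted p = 0.0453). Tef, the third member of that family, differed by -0.40 ± 0.12 and did not pass (adjusted p = 0.0748). Wee1, a brake on entry into mitosis, read 10.77 to 10.92 at ZT12 and 10.15, 10.24, 10.24 and 10.85 at ZT16. Replicate 4 lay with the ZT12 arrays, and the difference of -0.49 ± 0.22 did not pass. Klf9 differed by -0.39 without a call in its brightest probe set, and the lowest of its other probe sets gave -1.31. Under 19 alternatives, the mean of its probe sets among them, its difference ran from -0.54 to -0.33. Klf10, Klf15, Bhlhe40 and Bhlhe41 differed by 0.17, 0.04, 0.25 and 0.03 and did not pass.

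Of the 10 changed clock genes, Ciart, Dbp and Nfil3 passed whichever of the 7 arrays was left out. The number passing was 7, 4 and 5 without ZT12 replicates 1, 2 and 3 and 7, 5, 9 and 8 without ZT16 replicates 1 to 4. Arntl did not pass without ZT12 replicate 1 or 3 (adjusted p up to 0.0555, limma), and Per1 passed only when all 7 arrays, or all but ZT16 replicate 4, were used (adjusted p up to 0.116 otherwise). Fitted on the 7 arrays alone, Cry2, Hlf and Timeless did not pass. All 27 kept their direction under the 3 other ways of centring and scaling the arrays.

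**Figure D2:**
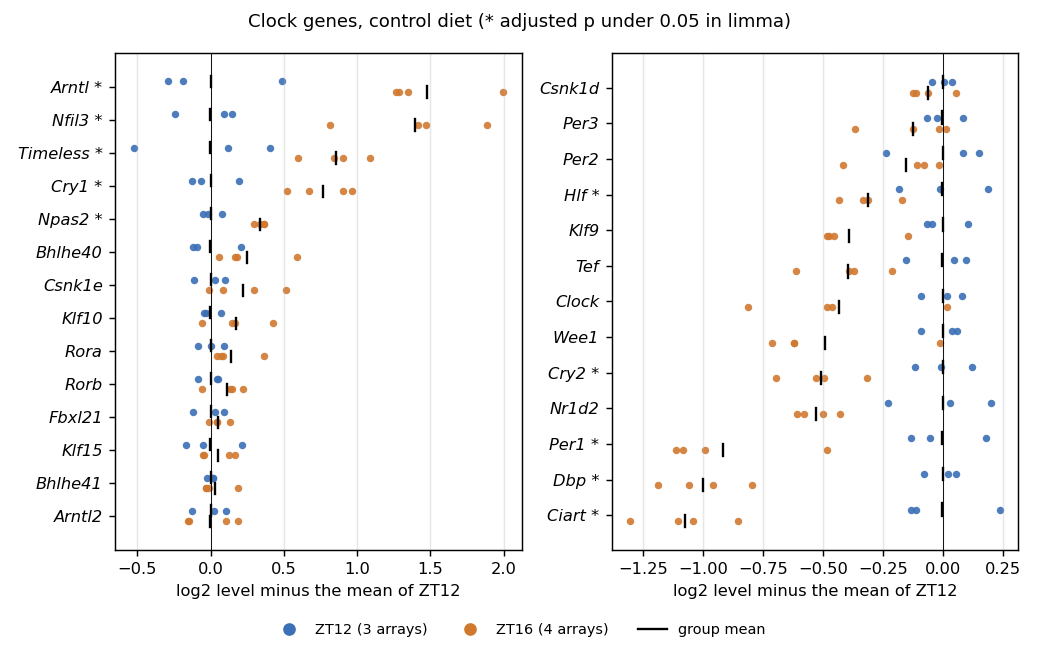
Log2 level of the 27 measured clock genes minus the ZT12 mean of the gene (x axis), 1 point per array, with ZT12 blue (3 arrays), ZT16 orange (4 arrays) and black bars for group means. The 10 genes with a star passed the adjusted p of 0.05; Arntl, Nfil3, Timeless and Cry1 lie right of the ZT12 arrays and Ciart, Dbp and Per1 left of them.

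The largest rises beside Arntl and Nfil3 were in genes of varied roles. Lrrtm2, which encodes a synaptic adhesion protein, rose by 1.31 ± 0.26, though its other probe sets rose less (0.50 and 0.52) and did not pass. Cxcl10, a chemokine induced by interferon, read 5.25, 5.09 and 5.04 at ZT12 and 5.95, 6.52, 5.94 and 6.72 at ZT16. The groups were well apart, and the rise was 1.15 ± 0.24 (adjusted p = 0.00981, limma). Iigp1, an interferon-inducible GTPase of a family with close copies, read 5.33 to 5.52 and then 6.09 to 6.72 (1.07 ± 0.24), with a smaller rise of 0.54 in its other probe set. Chka, which encodes choline kinase of phosphatidylcholine synthesis, rose from 6.39, 6.50 and 6.50 to 6.98, 7.64, 7.69 and 7.82 (1.07 ± 0.17, adjusted p = 0.000847). Its ZT12 arrays differed by little and all ZT16 arrays were above them.

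Gadd45b, a stress sensor of the p53 and NF-kB responses, read 8.70, 8.61 and 8.51 at ZT12 and 9.51, 9.47, 9.62 and 9.81 at ZT16. It rose by 1.00 ± 0.14 (adjusted p = 0.000207, limma). Txnrd1, thioredoxin reductase of the antioxidant defence, rose by 1.02 ± 0.24, from 9.12 to 9.28 at ZT12 to 9.85 to 10.75 at ZT16, the top value being replicate 4. Map3k8, a kinase that feeds the ERK and NF-kB pathways, rose by 1.00 ± 0.19. Insig1, which holds back sterol synthesis, rose by 0.93 ± 0.24, from 7.28 to 7.41 up to 7.83 to 8.80. Uap1, an enzyme of UDP-N-acetylglucosamine synthesis, rose by 0.98 ± 0.22, but only 0.01 and 0.32 in its other probe sets, which did not pass. The ubiquitin ligase genes Lonrf3 and Rnf19b rose by 0.98 ± 0.18 and 0.94 ± 0.17, and in both another probe set passed too (0.95 and 0.60). The kinase gene Nek3 rose by 0.98 ± 0.19, and the calcium sensor gene Hpca by 1.04 ± 0.23 (0.01 in its other probe set). None of these 15 had an array of ZT12 above one of ZT16. That is nearly fixed by their choice for large differences on these arrays, and 16.6% of all genes had no overlap. Whichever of the 7 arrays was left out, Chka, Gadd45b, Lonrf3, Lrrtm2, Nek3, Nfil3 and Rnf19b passed. On the 7 arrays alone, Lrrtm2 and Rnf19b did not pass, and neither did Hpca, Insig1, Txnrd1 and Uap1. The number of the 15 that passed was 10, 8 and 11 without ZT12 replicates 1, 2 and 3 and 14, 12, 15 and 13 without ZT16 replicates 1 to 4, with adjusted p up to 0.145 (limma).

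The largest fall was in Zfp950, a zinc finger gene. It read 7.43, 7.32 and 7.63 at ZT12 and 6.00, 5.15, 5.73 and 5.80 at ZT16. It fell by 1.79 ± 0.25 (adjusted p = 0.000207, limma), and by 1.04 in its other probe set, which also passed. A further zinc finger gene, Zfp955b, fell by 0.97 ± 0.22, but its other probe set gave 0.11, and zinc finger genes have close copies that probes may share. Rab30, a small GTPase of the Golgi, read 6.47, 6.51 and 6.35 and then 5.07, 4.71, 5.01 and 5.13 (fall of 1.46 ± 0.24). Both groups were narrow and far apart. Cd55b, which encodes a complement regulator with a close copy, read 8.40, 8.50 and 8.56 and then 7.07, 6.90, 7.17 and 7.42 (fall of 1.35 ± 0.24), while its other probe set gave -0.14 and did not pass.

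Among the other falls, Aadac, a microsomal deacetylase, fell by 1.42 ± 0.36, from 8.08 to 8.51 down to 6.49 to 7.29. The cytochrome P450 gene Cyp4v3 fell by 0.94 ± 0.18 (-0.29 in its other probe set, which did not pass), and Cyp1b1 by 1.06 ± 0.29 (-0.18 and 0.01 in its others). Ddit4, which encodes REDD1, an inhibitor of mTORC1 signalling, read 8.31, 8.34 and 8.19 at ZT12 and 7.45, 7.54, 7.29 and 6.90 at ZT16. It fell by 0.98 ± 0.21 (adjusted p = 0.0103, limma). Npat, a regulator of histone genes at entry to S phase, fell by 0.95 ± 0.22, from 6.87 to 7.78 down to 6.17 to 6.48. Nlrc3, a negative regulator of innate immune signalling, fell by 1.06 ± 0.26 (-0.21 in its other probe set, which did not pass). The signal recognition gene Srp54b and the protocadherin gene Pcdhb19, both with close copies, fell by 0.96 ± 0.24 and 1.12 ± 0.30.

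The T cell receptor chain gene Cd3e fell by 0.96 ± 0.18, from 7.05, 6.51 and 6.45 to 5.36, 5.61, 5.87 and 6.00. It was the only 1 of 8 measured T cell markers to change. Cd3g read 6.29 to 6.67 and then 6.08 to 6.22, Cd3d 6.32 to 6.50 and then 6.43 to 6.49, and Cd8a 6.60 to 6.71 and then 6.69 to 6.85. The mean level over the 8 markers, Cd3e included, was 6.62 to 6.83 at ZT12 and 6.47 to 6.62 at ZT16. Of the 8, 4 had a positive and 4 a negative difference, with a median of -0.06. In bulk RNA, fewer cells of a type and less RNA per cell cannot be told apart, and the part of T cells in this result was not tested. Whichever of the 7 arrays was left out, Zfp950, Rab30, Cd55b, Ciart, Dbp and Cyp4v3 passed. Of the 15 largest falls, 8, 7 and 11 passed without ZT12 replicates 1, 2 and 3 and 10, 8, 12 and 14 without ZT16 replicates 1 to 4. Cyp1b1 did not pass when any of the 7 arrays was left out (adjusted p up to 0.296, limma). Aadac and Pcdhb19 passed again only without ZT16 replicate 4. On the 7 arrays alone, Cd3e, Cyp1b1, Nlrc3 and Npat did not pass.

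**Figure D3:**
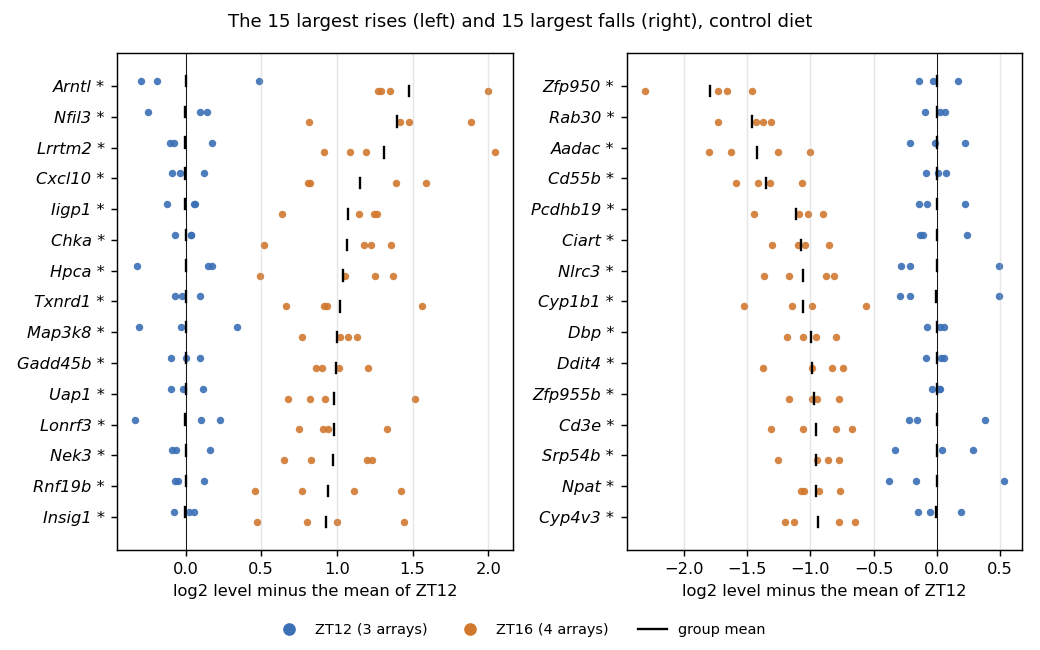
Log2 level minus the ZT12 mean of the gene (x axis) for the 15 largest rises (left) and 15 largest falls (right), 1 point per array, with ZT12 blue (3 arrays), ZT16 orange (4 arrays) and black bars for group means. In all 30 genes the arrays of the 2 time points do not overlap, as in 16.6% of all genes. The 30 were chosen for large differences on these same arrays, so this is nearly fixed by the choice.

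Of 617 genes measured in the lists outside the clock, 17 rose and 5 fell, or 3.57%, where 2.46% of all genes changed, and 23 of these 41 lists had no changed member. The endoplasmic reticulum stress genes, chaperones and regulators of the unfolded protein response, were 3 up and 1 down of 21, with a median of 0.21 and 17 of 21 above 0. Calr, the chaperone calreticulin, read 10.55, 10.30 and 10.44 at ZT12 and 10.80 or more on all 4 arrays of ZT16, and rose by 0.48 ± 0.10 (adjusted p = 0.0136, limma), with 0.52 in its other probe set. Its groups did not overlap. Creld2 rose by 0.39 ± 0.11 and the stress regulator Ddit3, which encodes CHOP, by 0.37 ± 0.08, from 8.39, 8.48 and 8.45 to 8.93, 8.86, 8.68 and 8.76. Herpud1, which serves the degradation of misfolded proteins, fell by 0.47 ± 0.10, from 10.63, 10.64 and 10.35 to 9.99, 10.06, 10.05 and 10.17. Sdf2l1 differed by 0.57 ± 0.16 and Hsp90b1 by 0.24 ± 0.07, and neither passed (adjusted p = 0.0516 and 0.0688). Of the 3 rises, Creld2 passed again only without ZT16 replicate 4, Calr did not pass without ZT12 replicate 2 or ZT16 replicate 2, and Ddit3 not without ZT12 replicate 1 (adjusted p up to 0.168, limma). Herpud1 did not pass without ZT12 replicate 1 or 2.

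Of 15 glucocorticoid targets, Per1 and Tsc22d3, which encodes the anti-inflammatory factor GILZ, fell and Cdkn1a rose. These 3 are 20% of the list, where 2.46% of all genes changed, and 8 of the 15 had an unadjusted p under 0.05, where 16% of all genes did (limma). Tsc22d3 read 9.44, 9.29 and 8.78 at ZT12 and 8.07, 7.91, 8.63 and 8.80 at ZT16, so that the groups overlapped, and fell by 0.82 ± 0.21 (adjusted p = 0.0353, limma). The corticoid-responsive factor Zbtb16 differed by -0.62 ± 0.21 and did not pass. Of 20 p53 and DNA repair genes 3 changed, or 15%. Gadd45b and the cell cycle inhibitor Cdkn1a (0.18 ± 0.05, adjusted p = 0.0499) rose and the stress gene Sesn1 fell by 0.46 ± 0.12. Cdkn1a did not pass when any of the 7 arrays was left out (adjusted p up to 0.207). Ier3 was the 1 of 24 immediate early genes to change, with a rise of 0.73 ± 0.16 from 9.33 to 9.72 up to 10.10 to 10.44, while Jun differed by -0.40 ± 0.12 without a call. Irf1, a transcription factor of the interferon response, was the 1 of 14 in its list and rose by 0.85 ± 0.18, from 8.70, 8.68 and 8.96 to 9.38, 9.56, 9.65 and 9.91. Cirbp, an RNA-binding protein induced by cold, fell by 0.59 ± 0.13, from 8.23, 8.34 and 8.08 to 7.64, 7.63, 7.71 and 7.56, and its relative Rbm3 differed by 0.03. The co-chaperone Stip1 rose by 0.51 ± 0.12 as 1 of 14 heat shock genes. Txnrd1 was the 1 of 19 antioxidant genes to change. No member of the NF-kB and cytokine list (17 genes) changed (1 at an unadjusted p under 0.05, limma), with Icam1 at 1.00 ± 0.36 (adjusted p = 0.136).

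Of 27 mitosis genes 22 had a positive difference, as had 54.8% of all genes, with a median of 0.23, against 0.01 over all genes. In this list 1 gene passed, Foxm1, the transcription factor that drives mitotic genes, which read 7.68, 7.25 and 7.59 and then 7.99, 8.10, 8.30 and 7.79 (0.54 ± 0.14, adjusted p = 0.0309, limma). The kinase gene Ttk, the proliferation marker Mki67 and the kinetochore gene Cenpf differed by 0.60, 0.49 and 0.64 and did not pass (adjusted p = 0.0542, 0.0579 and 0.167). The other probe sets of Ttk and Cenpf gave no positive difference, with -0.26 for Ttk. Foxm1 did not pass without ZT12 replicate 2 or 3 or ZT16 replicate 1, 2 or 3. Of 34 replication and S phase genes 16 had a positive difference, with a median of -0.01, and 1 passed, the replication initiation gene Mcm10 (0.58 ± 0.13, 0.03 and 0.04 in its other probe sets). Of the promoters matched to the mitosis list, 82.6% held the cell cycle element TTTGAA, against 17.9% of all promoters, and 82.6% CCAAT, against 37.4%. Of those of the S phase list, 29.4% held an E2F site (TTTCGCGC or TTTGGCGC), against 0.813%, all counted on both strands.

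For lists of metabolic and identity genes the number called was 0 or 1 each, which at 2.46% of all genes is read as no result about them. No gene changed among 34 of oxidative phosphorylation (median -0.01), 23 cytosolic ribosomal proteins (0.00), 22 of fatty acid oxidation (-0.03) and 14 of fatty acid synthesis (-0.02), where 3, 1, 1 and 3 genes had an unadjusted p under 0.05. There Fasn, fatty acid synthase, differed by 0.30 ± 0.09 (adjusted p = 0.0925, limma). The glycolysis gene Pfkp rose by 0.27 ± 0.07 as 1 of 15, and the proteasome gene Psmd11 by 0.33 ± 0.09 as 1 of 22. Of 17 cytoskeleton and adhesion genes 15 had a positive difference (median 0.20) and Pfn1, which encodes the actin-binding profilin, rose by 0.25 ± 0.05. Of 11 Notch genes the target Hey1 rose by 0.34 ± 0.09, but it did not pass when any of the 7 arrays was left out (adjusted p up to 0.213, limma). No gene changed among 12 bulge, 21 suprabasal, 20 Wnt, 17 TGF-beta and BMP and 18 EGF receptor genes, with 1, 2, 6, 2 and 3 at an unadjusted p under 0.05 (limma). Over the 11 lists of other cell types 1 of 89 measured members rose, the simple keratin Krt8 of Merkel cells (0.46 ± 0.13), and 1 fell, Cd3e. Of the 22 called genes named from lists outside the clock, Gadd45b alone passed whichever array was left out. Without ZT12 replicates 1, 2 and 3 the number passing was 5, 3 and 12. It was 12, 9, 16 and 16 without ZT16 replicates 1 to 4. Insig1, Sesn1 and Pfkp passed again only without ZT16 replicate 3, and Creld2 and Krt8 only without ZT16 replicate 4. On the 7 arrays alone, Cd3e, Cdkn1a, Ddit3, Foxm1, Hey1, Insig1, Krt8, Mcm10, Pfkp, Pfn1, Psmd11, Tsc22d3 and Txnrd1 did not pass.

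Over the whole control day, the genes that moved between ZT12 and ZT16 had several shapes, given here as group means with no test. Arntl was at its lowest mean at ZT12 (6.94), stood at 8.42 at ZT16 and was highest at ZT0 (9.17). Ciart, Dbp and Per1 had their highest means at ZT12 (8.84, 8.64 and 10.5) and were at 7.77, 7.64 and 9.59 at ZT16. Cry1 went on from 6.90 at ZT16 to 7.32 at ZT20. Several rises had levels at ZT16 and ZT20 that were also seen at ZT4 but not at ZT0 or ZT8. Gadd45b had means of 8.26, 10.4, 8.20, 8.61, 9.60 and 10.1 from ZT0 to ZT20, and Txnrd1 of 9.25, 10.7, 9.22, 9.19, 10.2 and 10.7. Nfil3 had 7.31, 8.86, 7.24, 7.13, 8.52 and 9.13. Zfp950 showed the mirror of this, with 7.42, 5.60, 7.11, 7.46, 5.67 and 5.64. Since each of these times is also a collection day, alternation between times and differences between days cannot be told apart. The 2 arrays of ZT8 had levels far from their neighbours for Aadac (10.9, against 8.29 at ZT12) and Cyp1b1 (10.95, against 7.96).

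**Figure D4:**
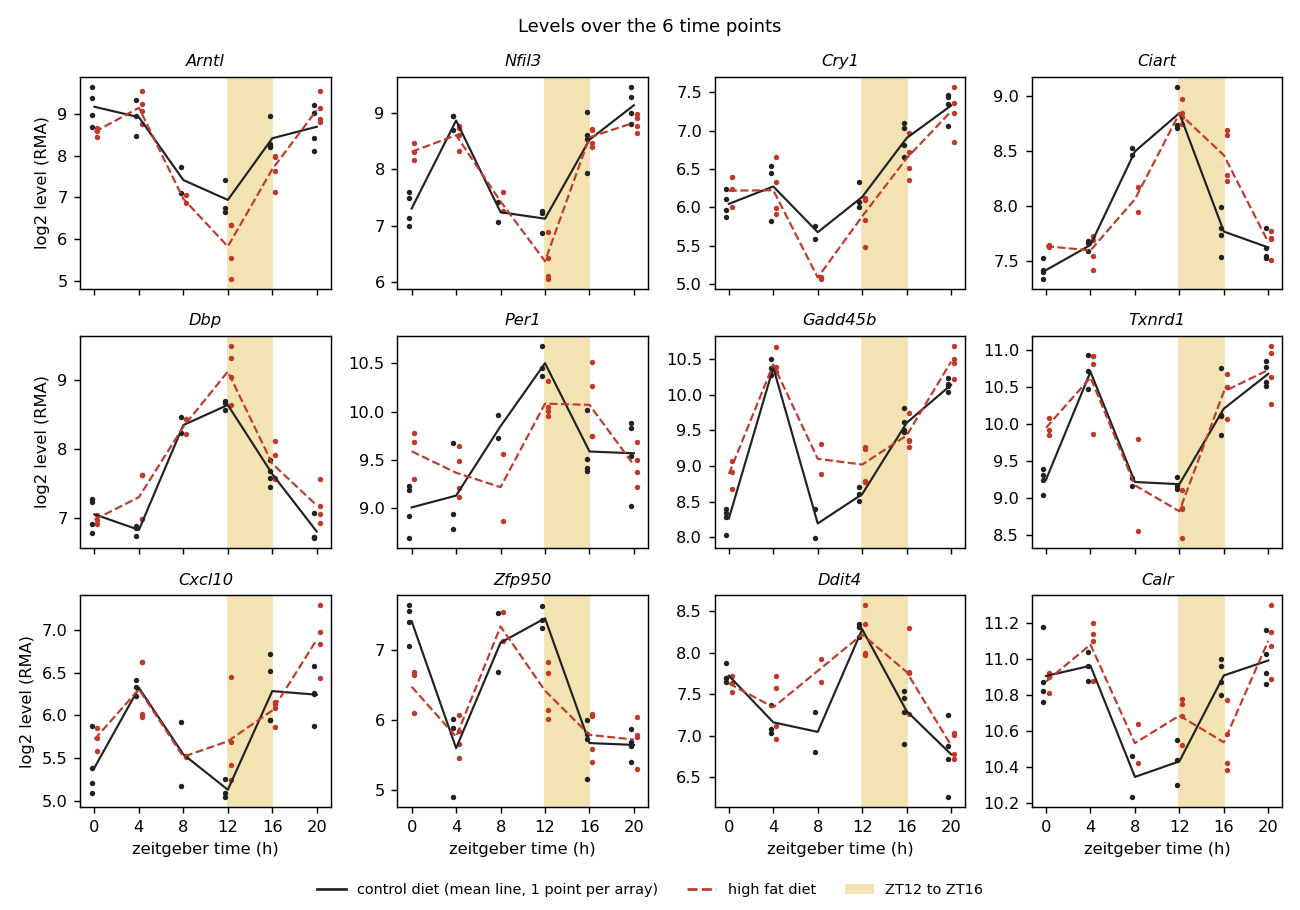
Log2 level (y axis) against zeitgeber time in hours (x axis) for 12 genes, with 1 point per array and lines through group means, control diet black and solid, high fat diet red and dashed, and the span from ZT12 to ZT16 shaded. Arntl, Nfil3, Cry1, Gadd45b, Txnrd1, Cxcl10 and Calr rise over the span in the control diet, and Ciart, Dbp, Per1, Zfp950 and Ddit4 fall.

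The step from ZT12 to ZT16 was also measured on the high fat diet, on 8 arrays that the control comparison does not share. There 4132 genes (24.2%) changed, 1336 up (7.81%) and 2796 down (16.4%). With array medians of the tested genes subtracted the split was 2068 up and 1949 down. Of the 421 genes changed on the control diet, 149 also changed on the high fat diet, which is 35.4% of the first list and 3.61% of the second. Of these 131 went the same way (78 up, 53 down) and 18 the opposite way. The control rises had a median of 0.45 on the control diet and 0.13 on the high fat diet, and the control falls -0.49 and -0.15. The difference of the changes between diets passed for 1363 of all genes (7.97%; limma), 333 more positive and 1030 more negative on the high fat diet, or 499 and 600 with array medians of the tested genes subtracted. It passed for 120 of the 421, 76 rises and 44 falls. The 421 were chosen for their control change, which is also 1 term of that difference. Their count of 120 and their smaller high fat medians are therefore partly set by that choice. The count of 1363 was 818, 759 and 900 without control ZT12 replicate 1, control ZT12 replicate 2 and control ZT16 replicate 2.

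Of the 10 clock genes changed on the control diet, Arntl, Nfil3, Cry1, Dbp, Hlf and Ciart changed in the same direction on both diets. The first 5 stood at 1.85, 2.19, 0.76, -1.33 and -0.23 on the high fat diet, and the difference from the control step did not pass for them (adjusted p = 0.627, 0.0627, 0.988, 0.423 and 0.709, limma). Ciart read 8.81, 8.74, 8.97 and 8.84 at ZT12 and 8.28, 8.69, 8.23 and 8.64 at ZT16 on the high fat diet, and fell by 0.38. The difference from its control fall was 0.69 (adjusted p = 0.00445). Per2 rose by 0.73 on the high fat diet, against -0.16 without a call on the control diet (difference 0.89, adjusted p = 0.00554). Per1 stood at -0.01 on the high fat diet without a call, but the difference of 0.90 did not pass (adjusted p = 0.0601). Timeless, Npas2 and Cry2, which changed on the control diet, had no call on the high fat diet either, at 0.12, 0.13 and -0.09. Their high fat steps minus control steps, -0.74, -0.21 and 0.42, also missed the threshold (adjusted p = 0.0589, 0.220 and 0.115, limma).

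Opposite or unequal steps were seen in other named genes. Cd55b, which fell on the control diet, rose on the high fat diet, from 6.17, 7.16, 6.97 and 6.91 to 8.20, 8.01, 7.48 and 7.68, by 1.04, a difference between diets of 2.39 (adjusted p = 0.000148, limma). All 4 high fat arrays of ZT16 were above those of ZT12. Tsc22d3 rose by 0.58 on the high fat diet (difference 1.40, adjusted p = 0.00445). Zfp950 fell by 0.63 on the high fat diet, and Rab30, Nek3 and Iigp1 stood at -0.27, 0.07 and -0.08 without a call. The differences of all 4 from the control step passed (1.16, 1.19, -0.91 and -1.16). The endocytic adaptor Snx9 rose by 0.61 ± 0.09 on the control diet (-0.11 in its other probe set) and fell by 0.24 on the high fat diet. The prefoldin gene Pfdn4 rose by 0.42 ± 0.09 and fell by 0.42.

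The other smallest p-values of the difference between diets were in genes that did not pass on the control diet and fell on the high fat diet. They were the prostaglandin E synthase gene Ptges2 (0.23 against -0.94), the BMP and Wnt antagonist gene Sostdc1 (0.24 against -0.996), the respiratory chain genes Ndufs6 (0.08 against -0.81) and Ndufb3 (0.08 against -0.70), the mitochondrial genes Smdt1 (0.16 against -0.61) and Tomm7 (-0.02 against -0.58), and Mesp1 (0.19 against -0.31). Of the 34 oxidative phosphorylation genes, 0 changed on the control diet and 29 fell on the high fat diet, with a median of -0.45, and 21 differed between diets. With array medians of the tested genes subtracted 28 fell and 20 differed. Of the 23 cytosolic ribosomal proteins, 22 fell on the high fat diet and 16 differed between diets, or 17 and 12 with those medians subtracted. Of the 21 endoplasmic reticulum stress genes 8 differed between diets, among them Calr, Creld2, Ddit3, Herpud1 and Hsp90b1. Creld2 fell by 0.44 on the high fat diet. Of the 24 immediate early genes 12 rose on the high fat diet and 10 differed between diets. Beside these list counts, 7.81% of all genes rose and 16.4% fell on the high fat diet, and 7.97% differed between diets.

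**Figure D5:**
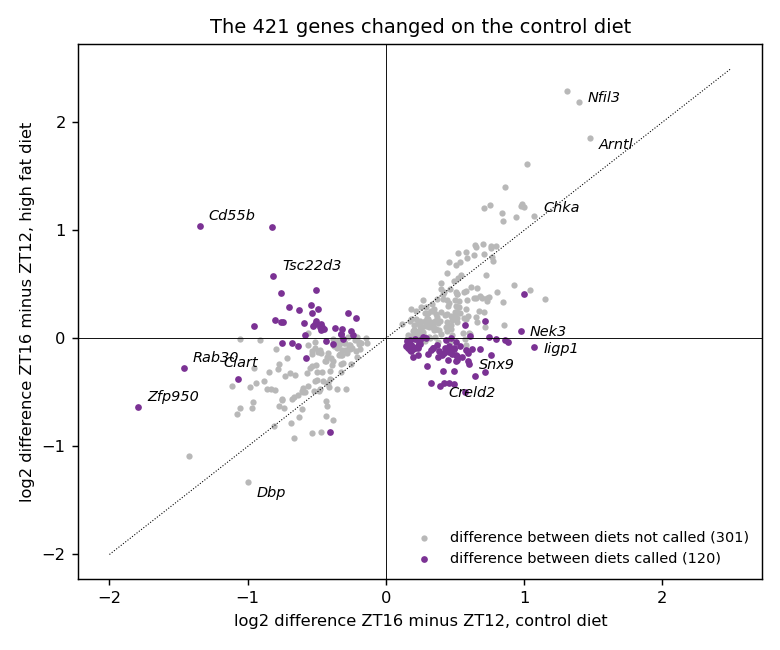
Log2 difference between ZT16 and ZT12 on the control diet (x axis) and on the high fat diet (y axis) for the 421 genes changed on the control diet; the dotted line marks equal change. Purple points are the 120 genes whose change differed between the diets, with Cd55b and Tsc22d3 in the opposite quadrant, and Arntl, Nfil3 and Chka near or above the line.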

How the data were processed

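RNA of epidermal stem cells was measured on 41 single-channel expression arrays, 7 of them in this comparison. Per the submitters' processing notes, the authors made the deposited log2 values with RMA, with version and any batch adjustment not given in the sources used here. In all, the table held 45141 probe sets, 28898 of which the platform annotation pairs with 1 gene. Symbols were updated through gene identifiers, and each of 17097 genes was represented by its brightest probe set, judged by the mean of the 41 arrays, with no filter on low values. The arrays' medians ran from 6.41 to 6.44, and no 2 arrays held identical values. Arrays report brightness and not counts, so their number limits the precision.

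limma 3.58.1 in R 4.3.3 was fitted on all 41 arrays with 12 group means (29 residual degrees of freedom). The contrasts were control ZT16 minus ZT12, the same on the high fat diet, and their difference. P-values were adjusted by Benjamini-Hochberg over all genes, with 0.05 as the threshold. In a simulation of the control contrast on 17097 genes, 39 of 50 genes changed by 0.5 on the log2 scale, 49 of 50 changed by 1 and all 50 changed by 1.5 were found. It drew independent noise for each array around 1 flat mean per gene. Deviations shared by the genes of an array, or by a collection day, were not simulated, so recovery in the real data may be lower. Figures used matplotlib 3.10.9.

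The members and the 44 gene lists were chosen with earlier results of these data known. Named genes were the 15 largest rises and 15 largest falls past the threshold (predicted genes passed over), all measured clock genes, up to 6 genes of smallest p of each other list with those that passed, and the 10 smallest p of the difference between diets, beside cell type markers. Alternatives covered the arrays in the fit, probe sets, dim genes, centring, scaling, the variance prior, array weights, the replicate number and each array left out. Promoters were RefSeq's (GRCm38.p6), searched on both strands for the motifs spelled out with the results. They matched 22 of 27 clock genes.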

Additional observations from a re-analysis of the deposited data

Results flagged for a closer look

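In 7 of 80 named genes 1 of the 4 control ZT16 arrays lay far from the other 3, beyond Dixon's critical value for 4 samples, which chance gives in about 5% of genes. Replicate 4 was the array apart in 5 of the 7. It read 8.94 for Arntl (the others 8.21 to 8.29), 12.21 for Rora (11.89 to 11.93), 11.41 for Klf9 (11.07 to 11.10), 10.85 for Wee1 (10.15 to 10.24) and 10.65 for Tomm7 (10.75 to 10.77). Replicate 2 read 5.73 for Bhlhe41 (5.51 to 5.53) and 7.56 for Mcm10 (7.10 to 7.13).

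The step from ZT12 to ZT16 differed between the diets in 29 of the 80 named genes by the limma test of that difference, against 7.97% of all genes. Cd55b and the genes of smallest p given last below were named because of this same test, so their passing is fixed by the choice. Most of the others were named for their control change, which is a term of the difference. The count of 29 is therefore largely set by how the genes were chosen and is no result about them as a set. Values are the high fat change minus the control change on the log2 scale. Among clock genes it was 0.69 for Ciart, 0.89 for Per2, 0.42 for Rora and 0.60 for Klf9. Among the largest control falls it was 2.39 for Cd55b, 1.19 for Rab30, 1.16 for Zfp950 and 1.07 for Npat, and among the largest rises -1.16 for Iigp1, -0.91 for Nek3 and -0.59 for Gadd45b. Among protein folding genes it was -0.63 for Calr, -0.83 for Creld2, -0.43 for Ddit3, 0.58 for Herpud1 and -0.71 for Stip1. It was 1.40 for Tsc22d3, 0.57 for Sesn1, -0.69 for Mcm10 and -0.26 for Pfn1. For the genes of smallest p it was -1.17 for Ptges2, -1.24 for Sostdc1, -0.89 for Ndufs6, -0.78 for Ndufb3, -0.77 for Smdt1, -0.56 for Tomm7, -0.50 for Mesp1, -0.84 for Snx9 and -0.84 for Pfdn4.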

How the results depend on the processing

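The 421 genes changed on the control diet became 235 with the 7 arrays alone, of which 152 were among the 421. They became 668 with each probe set on its own and 1243 with array weights. With 1 of the 7 arrays left out the count was 64 to 401. The 1363 genes that differed between diets became 2102 with each probe set, 2241 with array weights, and 759 to 1801 with 1 array left out. Deviations of same-numbered arrays correlated at -0.0989, 0.169 and 0.108, and those of differently numbered arrays at -0.315 to 0.195. With so few arrays this cannot decide whether the replicate number pairs them. With the replicate number as a block 265 genes changed. Ciart, Dbp, Nfil3, Gadd45b, Chka, Lonrf3, Nek3, Zfp950, Rab30, Cd55b and Cyp4v3 passed under every alternative that scored them as genes. The fit of each probe set on its own is not among these, and other probe sets of Cd55b and Cyp4v3 did not pass. Rab30 was scored under 18 alternatives and the others under 19, as it fell among the dim genes left out. Differences that changed sign were small. With all probe sets of a gene averaged they were 0.14 for Arntl2, -0.11 for Rora, -0.00168 for Rorb and 0.10 for Csnk1d, and with the replicate block 0.00605 for Arntl2. With 1 array left out they ran from -0.071 to 0.047 for Arntl2, -0.00885 to 0.10 for Fbxl21, -0.028 to 0.046 for Bhlhe41 and -0.038 to 0.15 for Klf15. The cause was not tested. Small changes are missed at this number of arrays, and no background level is at hand for the dim probe sets.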
